A study of Mus musculus with 12 samples.

Results

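The genes described here are the 10 that encode the MCM helicase, its activators and its loaders: Mcm2, Mcm3, Mcm4, Mcm5, Mcm6, Mcm7, Mcm10, Cdc45, Cdc6 and Cdt1. They were chosen by name from what their proteins do, with earlier results of these data known. All 10 were measured among the 25581 genes tested on 12 one-colour Agilent mouse arrays. RNA came from NIH3T3 cells, an established mouse embryonic fibroblast line, after 18 h with the solvent DMSO, with 50 nM rapamycin or with 2 µM PP242. Each treatment had 4 arrays, described by the submitters as independent experiments, and the labels name no allele or further agent in any group. Rapamycin is an allosteric inhibitor that acts mainly on mTOR complex 1, and PP242 competes with ATP in the mTOR kinase domain and so reaches both mTOR complexes. The doses of the 2 inhibitors differ, 1 line stands for fibroblasts, and only RNA was measured.

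A chromosome is copied once per division because its origins are licensed and then fired in separate steps. The origin recognition complex, with Cdc6 and Cdt1, loads the hexamer Mcm2 to Mcm7 around DNA in an inactive form. Kinases, Cdc45, the GINS complex and Mcm10 later turn it into the helicase that opens the fork. Cdt1 is held back by geminin and destroyed during replication, which prevents a second loading. Most of these genes are known targets of E2F factors in growing fibroblasts, and their RNA falls when such cells leave the cycle.

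Because the genes are known as E2F targets, the window from 250 bases before to 50 bases after each start was searched for the 8-base forms TTTCCCGC, TTTGGCGC, TTTGCCGC and TTTCGCGC of the E2F site, on both strands, in RefSeq promoter sequences (build GRCm38.p6). The table held 9 of the 10 genes, all but Mcm4. Of these 9 genes, 6 held a match in at least 1 window. Counted per window and not per gene, 744 of all 32851 windows in the table did (2.26%). The 6 windows with a match are shown because they carry the sequence feature that these 6 genes share, 5′ to 3′ along the gene, with every matched base in capitals.
Mcm3: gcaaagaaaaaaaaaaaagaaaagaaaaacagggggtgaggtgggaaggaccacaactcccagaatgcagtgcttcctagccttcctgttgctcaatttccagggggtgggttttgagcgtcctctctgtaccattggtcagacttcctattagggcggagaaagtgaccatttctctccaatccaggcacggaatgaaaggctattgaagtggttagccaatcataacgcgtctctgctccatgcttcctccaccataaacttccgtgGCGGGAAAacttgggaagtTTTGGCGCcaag
Mcm5: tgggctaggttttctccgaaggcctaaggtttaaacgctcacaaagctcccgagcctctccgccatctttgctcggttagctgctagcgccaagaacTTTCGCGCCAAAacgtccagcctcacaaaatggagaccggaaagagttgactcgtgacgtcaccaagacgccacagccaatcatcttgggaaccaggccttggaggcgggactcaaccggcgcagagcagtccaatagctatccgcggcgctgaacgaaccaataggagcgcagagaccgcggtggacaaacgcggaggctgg
Mcm6: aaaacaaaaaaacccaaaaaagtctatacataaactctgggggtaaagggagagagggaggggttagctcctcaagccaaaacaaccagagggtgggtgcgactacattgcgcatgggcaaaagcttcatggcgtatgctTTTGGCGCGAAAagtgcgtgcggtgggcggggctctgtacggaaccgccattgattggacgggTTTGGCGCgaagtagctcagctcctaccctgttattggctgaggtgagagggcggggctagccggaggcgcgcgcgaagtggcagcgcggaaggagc
Mcm7: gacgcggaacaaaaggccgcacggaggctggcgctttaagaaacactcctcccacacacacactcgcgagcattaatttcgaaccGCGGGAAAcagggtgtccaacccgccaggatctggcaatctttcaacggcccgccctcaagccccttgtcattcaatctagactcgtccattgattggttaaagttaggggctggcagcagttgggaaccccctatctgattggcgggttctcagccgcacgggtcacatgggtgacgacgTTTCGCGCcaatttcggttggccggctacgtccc
Cdc6: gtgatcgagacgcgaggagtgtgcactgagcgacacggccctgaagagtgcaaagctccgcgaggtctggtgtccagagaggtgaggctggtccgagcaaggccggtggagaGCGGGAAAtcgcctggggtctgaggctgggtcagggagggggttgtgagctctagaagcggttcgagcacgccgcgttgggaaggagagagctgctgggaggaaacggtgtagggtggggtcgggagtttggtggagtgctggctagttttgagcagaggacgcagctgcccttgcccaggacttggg
Cdt1: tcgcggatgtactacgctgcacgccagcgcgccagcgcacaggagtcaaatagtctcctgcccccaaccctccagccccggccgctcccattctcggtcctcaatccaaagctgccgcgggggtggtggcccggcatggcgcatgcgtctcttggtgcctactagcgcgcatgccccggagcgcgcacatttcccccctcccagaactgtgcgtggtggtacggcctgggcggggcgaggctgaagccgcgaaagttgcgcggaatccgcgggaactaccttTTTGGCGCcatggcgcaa

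The Mcm3 window lies at chr1:20820263-20820562, minus strand, and it holds TTTCCCGC on the opposite strand and TTTGGCGC on the gene's strand, both after the start. The Mcm5 window (chr8:75109259-75109558, plus strand) holds 1 run of capitals in which TTTCGCGC and, on the opposite strand, TTTGGCGC overlap. The same overlapping pair occurs in the other orientation in the Mcm6 window (chr1:128359656-128359955, minus strand), followed by a separate TTTGGCGC. In the Mcm7 window (chr5:138171834-138172133, minus strand) TTTCCCGC on the opposite strand lies before the start and TTTCGCGC after it. The Cdc6 window (chr11:98907901-98908200, plus strand) holds TTTCCCGC on the opposite strand. The Cdt1 window (chr8:122567765-122568064, plus strand) holds TTTGGCGC after the start. Singly, TTTCCCGC occurred in 1.07% of all windows, TTTGGCGC in 0.51%, TTTGCCGC in 0.44% and TTTCGCGC in 0.32%. Mcm2, Mcm10 and Cdc45 had none of the 4 in their windows, and neither did a second annotated start of Mcm7. A match is a string of letters, and no binding was measured.

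Levels are given as log2 of the processed signal relative to the 75th percentile of all probes on the same array, so a difference of 1 is a factor of 2. On 8 arrays 55.7% to 60.4% of probes were well above background. The remaining 4 had raised dim probes: DMSO 2 with 77.9% of probes well above background, rapamycin 3 with 97.9%, PP242 1 with 84.2% and PP242 4 with 96.2%. The ratio of the 75th to the 25th percentile of the signal was 251 to 406 on the 8 arrays and 69.5, 7.05, 23.5 and 14.3 on those 4. The 10 genes are therefore described on all 12 arrays and on the 8, which hold 3 DMSO, 3 rapamycin and 2 PP242 arrays and 19669 tested genes, and the changes of other genes are from the 8 unless 12 are named. All 8 fibroblast markers, among them Col1a2, Vim and Thy1, were well above background on each of the 8 arrays. Of 11 markers of epithelial, blood, endothelial, muscle and nerve cells, 7 were well above background on none of the 8 and only Tubb3 on all of them. In bulk samples such as these, fewer cells that transcribe a gene and less of its RNA per cell cannot be told apart.

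After PP242 every one of the 10 genes was lower than after DMSO. On the 8 arrays all 10 fell (limma, adjusted p under 0.05 over all 19669 genes), by 0.87 for Cdt1 to 2.01 for Cdc6 on the log2 scale, with a median of -1.39. The background in this comparison was high, with 26.1% of all genes called and 13.3% called lower, and the median change over all genes was -0.01. On the 12 arrays the 4 PP242 values of each of the 10 genes lay below its 4 DMSO values, which held for 9.33% of all genes tested. The median there was -1.17, against 0.41 over all genes. Both the 9.33% and the 0.41 are over a set that admits genes well above background on as few as 4 arrays. Over the 15933 genes well above background on all 12 arrays the median change was 0.02, and the share without overlap was not computed for them. None of the 10 passed the adjusted test on 12 arrays, although 6 had an unadjusted p under 0.05 (8.65% of all genes did), and 0.344% of all genes passed (0.043% lower). Without rapamycin 3, which enters that fit only through the shared estimate of the spread, all 10 passed on the other 11 arrays, with limma adjusted p from 0.00145 to 0.0439, and 12.3% of all genes were called there.

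**Figure D1:**
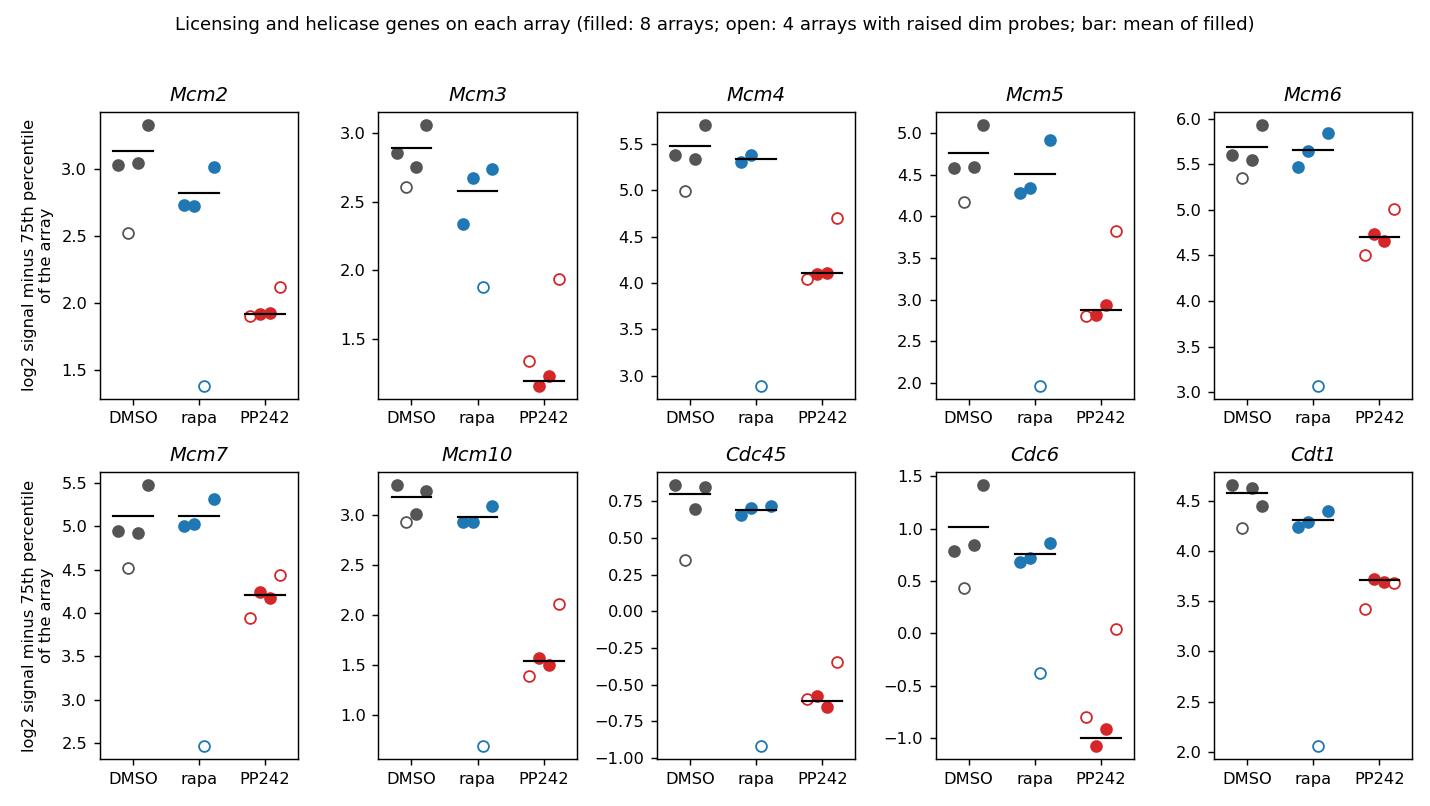
Log2 level of each of the 10 genes on every array, relative to the array's 75th percentile, with 1 point per array, by treatment; open points are the 4 arrays with raised dim probes. All PP242 points lie below all DMSO points of the same gene, and the lowest rapamycin point of each gene is rapamycin 3.

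Among the loaders, Cdc6, the ATPase that recruits the helicase to the origin recognition complex, had the largest fall on the 8 arrays. It read 0.79, 0.43, 0.84 and 1.42 on DMSO arrays 1 to 4, 0.68, 0.72, -0.38 and 0.87 on the rapamycin arrays and -0.80, -1.08, -0.92 and 0.04 on the PP242 arrays. The PP242 arrays did not overlap with the DMSO arrays, and PP242 4, an array with raised dim probes, was the highest of them. Cdc6 was lower than in DMSO by a factor of 4.04 on the 8 arrays (log2 change -2.01 ± 0.20, SE, limma adjusted p = 0.00132) and of 2.94 on the 12 (-1.56 ± 0.37, adjusted p = 0.131). A second Cdc6 probe gave -2.01 and -1.5. Cdt1, the partner that brings the hexamer, had the smallest fall on the 8 arrays. Its values were 4.65, 4.23, 4.63 and 4.45 on the DMSO arrays, 4.24, 4.28, 2.06 and 4.39 on the rapamycin arrays and 3.42, 3.72, 3.69 and 3.69 on the PP242 arrays. All PP242 arrays were below all DMSO arrays and 3 of the 4 nearly coincided. The change was -0.87 ± 0.10 on the 8 arrays (limma adjusted p = 0.00239) and -0.86 ± 0.47 on the 12 (adjusted p = 0.734).

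All 6 hexamer subunits fell on the 8 arrays, Mcm5 and Mcm3 by the most and Mcm6 and Mcm7 by the least. Mcm5 fell by 1.88 ± 0.25 (limma adjusted p = 0.00325), Mcm3 by 1.70 ± 0.16 (adjusted p = 0.001) and Mcm4 by 1.37 ± 0.14 (adjusted p = 0.00248). Mcm2 fell by 1.21 ± 0.14 (limma adjusted p = 0.00226), Mcm6 by 1.00 ± 0.16 (adjusted p = 0.0068) and Mcm7 by 0.91 ± 0.20 (adjusted p = 0.0182). None passed on the 12 arrays, where limma gave -1.52 ± 0.58 for Mcm5 (adjusted p = 0.415), -1.40 ± 0.28 for Mcm3 (0.0765) and -1.12 ± 0.53 for Mcm4 (0.627). For Mcm2 it was -1.02 ± 0.36 (limma adjusted p = 0.356), for Mcm6 -0.88 ± 0.54 and for Mcm7 -0.77 ± 0.56 (0.793 for both), so that there Mcm7 and not Cdt1 had the smallest change. In linear terms the 8-array fall was from 1.88 times lower for Mcm7 to 3.69 times lower for Mcm5. Mcm5 read 4.57, 4.17, 4.59 and 5.09 on the DMSO arrays, 4.28, 4.34, 1.97 and 4.92 on the rapamycin arrays and 2.81, 2.81, 2.93 and 3.82 on the PP242 arrays. Its neighbour in the ring, Mcm3, read 2.85, 2.60, 2.75 and 3.06 in DMSO, 2.33, 2.67, 1.88 and 2.74 in rapamycin and 1.34, 1.16, 1.23 and 1.93 in PP242. In both genes the PP242 arrays were clear of the DMSO arrays, and the highest PP242 array was again PP242 4.

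Mcm2 was 3.03, 2.52, 3.05 and 3.33 in DMSO, 2.73, 2.72, 1.38 and 3.02 in rapamycin and 1.90, 1.92, 1.92 and 2.12 in PP242. Mcm4, one of the 3 subunits of the catalytic core with Mcm6 and Mcm7, was 5.38, 4.99, 5.34 and 5.71 in DMSO and 4.04, 4.10, 4.11 and 4.71 in PP242. Under rapamycin Mcm4 was 5.30, 5.39 and 2.89 on arrays 1 to 3, and its value on rapamycin 4 was left out as an outlier spot, so its rapamycin group has 1 array fewer. Its rapamycin change from DMSO on the 8 arrays was -0.13. Under other ways of processing the data it ran from -0.40 to -0.03 and was never called. In both Mcm2 and Mcm4, 3 of the 4 PP242 arrays nearly coincided, with PP242 4 above them and below every DMSO array. Mcm6 was 5.60, 5.35, 5.55 and 5.93 in DMSO, 5.47, 5.65, 3.07 and 5.85 in rapamycin and 4.51, 4.74, 4.66 and 5.01 in PP242. Mcm7 was 4.95, 4.52, 4.92 and 5.47 in DMSO, 5.0, 5.03, 2.47 and 5.31 in rapamycin and 3.95, 4.24, 4.18 and 4.44 in PP242. The gap between the lowest DMSO and the highest PP242 array was smaller for Mcm7 than for the other 9 genes. Without PP242 2 or PP242 3, which leaves 1 PP242 array assumed to vary like the rest, Mcm7 no longer passed (limma adjusted p = 0.0917 and 0.115), and without PP242 3 neither did Mcm6 (0.0608). With the slide as a block, Mcm6 changed by -0.97 (limma adjusted p = 0.076) and Mcm7 by -0.86 (0.13) on the 8 arrays, and the other 8 genes passed in a fit that called 7.18% of all genes.

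Both activators fell on the 8 arrays, and no PP242 array came near a DMSO array. Cdc45, the helicase cofactor recruited when an origin fires, read 0.86, 0.35, 0.70 and 0.85 in DMSO, 0.66, 0.70, -0.92 and 0.72 in rapamycin and -0.60, -0.58, -0.65 and -0.35 in PP242. Mcm10, which is not a subunit of the ring and takes part in its activation, read 3.30, 2.92, 3.01 and 3.24 in DMSO, 2.93, 2.93, 0.69 and 3.09 in rapamycin and 1.39, 1.57, 1.5 and 2.11 in PP242. All DMSO arrays of Cdc45 were above 0 and all PP242 arrays below it. Its change was -1.42 ± 0.09 on the 8 arrays (2.67 times lower, limma adjusted p = 0.000438) and that of Mcm10 was -1.65 ± 0.12 (3.13 times lower, adjusted p = 0.000523). On the 12 arrays the changes were -1.23 ± 0.37 and -1.47 ± 0.49, with limma adjusted p of 0.252 and 0.318.

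Arrays lay on 3 slides, and PP242 and DMSO shared each of them. Within slide 1, which holds 1 PP242 and 2 DMSO arrays, all 10 genes were lower after PP242, with a median of -1.44. Slide 2, with 2 PP242 arrays and 1 DMSO array, gave -0.69, and slide 3, with 1 of each, gave -1.30, with all 10 lower on both. The slide 2 value includes DMSO 2 and PP242 4 and the slide 3 value PP242 1, all with raised dim probes.

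**Figure D2:**
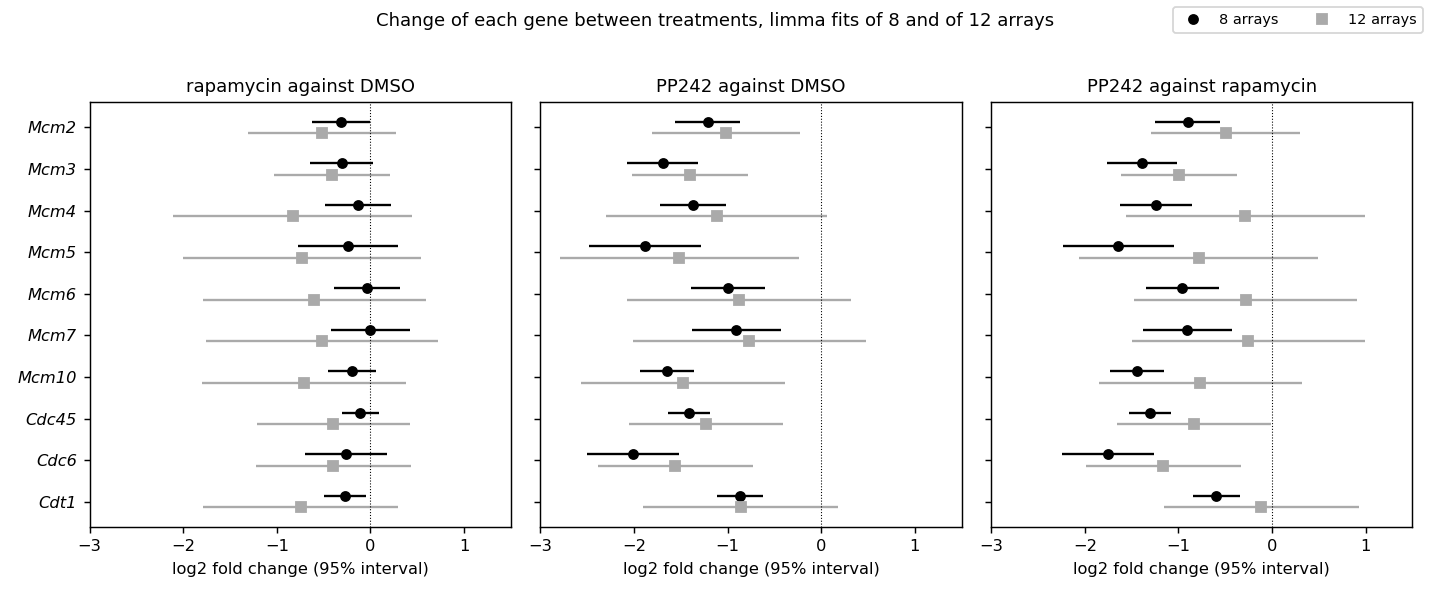
Log2 fold change of each gene with its 95% interval in the 3 comparisons, from the fits of 8 and of 12 arrays. For PP242 against DMSO the 8-array intervals lie wholly below 0, and the 12-array intervals are wider.

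Rapamycin gave smaller differences from DMSO, and no gene passed the test. None of the 10 was called against DMSO on the 12 arrays (0 with an unadjusted p under 0.05; 0% of all genes were called) or on the 8 (2 with an unadjusted p under 0.05, Cdt1 and Mcm2, as for 13.2% of all genes), where 0.0559% of all genes were called and 0.0203% called lower. On the 8 arrays the changes ran from -0.31 for Mcm2 to -0.00 for Mcm7, with a median of -0.22, which became -0.080 without DMSO 4. Cdt1 changed by -0.27 ± 0.09 (unadjusted p = 0.0241, limma adjusted p = 0.305) and Mcm2 by -0.31 ± 0.13 (unadjusted p = 0.0474, adjusted p = 0.372). Mcm2, Mcm3 and Cdt1 had all 3 rapamycin arrays below all 3 DMSO arrays, 3 of 10 genes where 10.2% of all genes did so. The 95% interval of the Mcm7 change on the 8 arrays was -0.42 to 0.42 and that of Mcm6 was -0.39 to 0.31. Falls of the size seen with PP242 lay outside both of these intervals, while smaller changes in either direction lay inside. This held for the 8 arrays only. In the 12-array fit the intervals were -1.76 to 0.73 for Mcm7 and -1.79 to 0.60 for Mcm6. Those held the PP242 changes of that fit, -0.77 and -0.88. On the 12 arrays the rapamycin and DMSO arrays overlapped in every one of the 10 genes, where 1.2% of all genes had rapamycin wholly below DMSO. The median there was -0.56, and without rapamycin 3 it was -0.11, with 3 rapamycin arrays left. On rapamycin 3, the array with the most raised dim probes, all 10 genes were lower relative to the 75th percentile than on the other rapamycin arrays. That percentile was itself raised, at a processed signal of 7538 against 1309, 1162 and 1594 on rapamycin 1, 2 and 4. Before this scaling the signal of these genes was not the lowest on rapamycin 3. Cdc45, for example, read 3992 there against 2062, 1892 and 2618. Within slide 1 the rapamycin median was -0.33 with all 10 lower, within slide 2, against DMSO 2, it was 0.24 with 0 lower. On slide 3 it was -1.06 with rapamycin 3 and, without it, 0.03 with 3 of 9 genes lower.

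Set against rapamycin, PP242 gave lower values of all 10 genes on the 8 arrays. All 10 passed (14% of all genes were called, 7.29% lower), with a median of -1.27, and all 10 had no overlap, as did 25.6% of all genes in this direction. Cdc6 changed by -1.75 ± 0.20 (limma adjusted p = 0.00403), Mcm5 by -1.64 ± 0.25 (adjusted p = 0.00939) and Mcm3 by -1.39 ± 0.16 (adjusted p = 0.00372). Cdt1 had the smallest change, -0.60 ± 0.10 (limma adjusted p = 0.0151). On the 12 arrays none passed in limma's test (0% of all genes did), 3 had an unadjusted p under 0.05 and the median was -0.63. The groups overlapped in every one of the 10 genes, where 0.907% of all genes had PP242 arrays wholly below rapamycin arrays, and rapamycin 3 was lower than at least 1 PP242 array each time. Without rapamycin 3, 8 of the 10 passed (4.07% of all genes did), with a median of -1.14. Within slides the median was -1.19 on slide 1, -0.97 on slide 2 (-1.31 without PP242 4) and, on slide 3, where the only PP242 array and 1 of the 2 rapamycin arrays had raised dim probes, -0.40 with 6 of 10 lower. Without PP242 2 or without PP242 3, 4 of the 10 passed on the remaining arrays, where 2.65% and 2.5% of all genes did. With the slide as a block 3 passed, against 2.63% of all genes. Mcm7 also missed the threshold with quantile normalisation (limma adjusted p = 0.0523), in the deposited table (0.0609) and with no filter on dim probes (0.0617). Mcm4 missed it in the deposited table (-0.83, limma adjusted p = 0.0839). The 50 nM and 2 µM treatments are not matched doses.

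The estimated size of the change differed from gene to gene. To compare the genes without any scaling between arrays, the mean of the other members on the same array was subtracted from each gene, with Mcm4 kept out of the means because of its missing value. Relative to the rest, Mcm7 was higher after PP242 than after DMSO by 0.48 and Mcm6 by 0.35, with every PP242 array above every DMSO array. Mcm10 was lower by 0.32 and Mcm3 by 0.24, again with no overlap, but narrowly. The highest PP242 array stood at -0.479 for Mcm10 and -0.678 for Mcm3, and the lowest DMSO array at -0.461 and -0.664. An exact two-sided permutation test gave p = 0.0286 for each of these 4 genes, the smallest that 4 arrays against 4 allow. After adjustment over the 30 tests made it was 0.122, so none passed. Cdc6 (-0.41), Mcm5 (-0.37) and Cdt1 (0.37) had differences of like size in which the groups overlapped (exact p = 0.114, adjusted 0.264). On the 8 arrays the relative differences were 0.56 for Mcm7, 0.46 for Mcm6, 0.60 for Cdt1, -0.68 for Cdc6 and -0.54 for Mcm5. Against rapamycin on the 12 arrays, Cdt1 was relatively higher after PP242 by 0.58, Mcm7 by 0.43 and Mcm6 by 0.39, without overlap. The exact permutation p was 0.0286 for each (adjusted 0.122). With 30 tests and a floor of 0.0286, a gene could pass only if many others reached the floor too. The tests therefore cannot decide whether the genes changed unequally. A ratio of this kind would also not show which gene stayed.

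**Figure D3:**
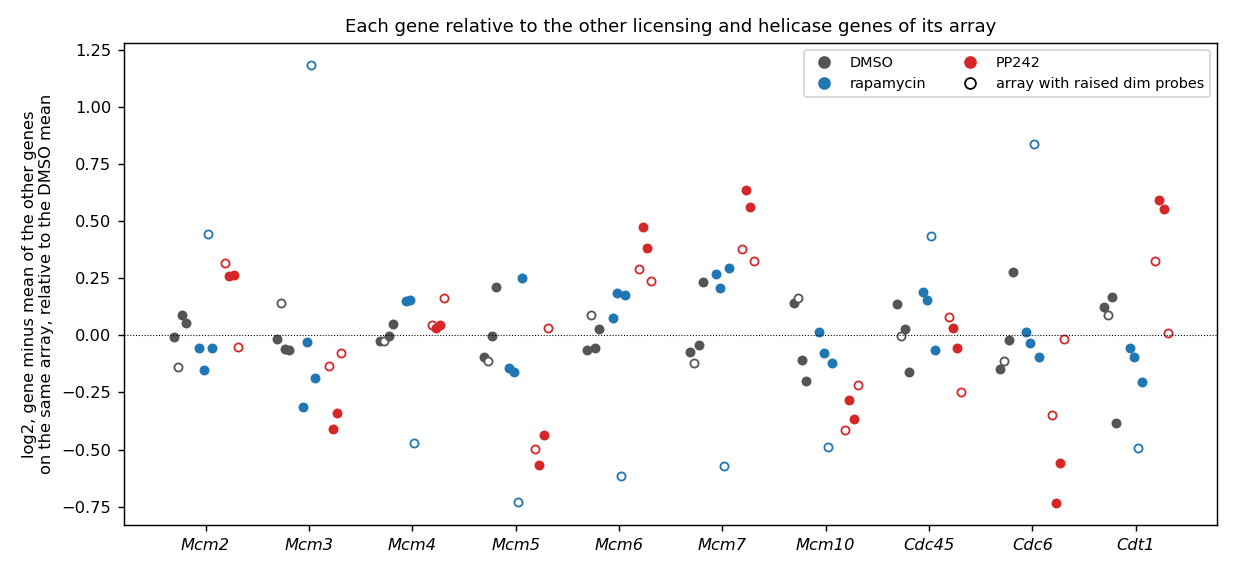
Each gene minus the mean of the other genes on the same array, in log2, with the DMSO mean set to 0 and 1 point per array; open points are the 4 arrays with raised dim probes. Mcm6 and Mcm7 lie above all DMSO points on the 4 PP242 arrays, and Mcm3 and Mcm10 below them.

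Most of the wider replication pathway fell under PP242 too on the 8 arrays. Of 80 other genes listed by role, 77 were measured. On the 8 arrays 60 fell and 3 rose after PP242 (median -1.03), against 13.3% and 12.8% of all genes. After rapamycin none was called in limma's test (12 with an unadjusted p under 0.05, 13.2% of all genes, median -0.09). On the 12 arrays none was called for PP242 either (35 with an unadjusted p under 0.05, against 8.65% of all genes), with a median of -0.83. In 53 of the 77 all 4 PP242 arrays lay below all 4 DMSO arrays there, against 9.33% of all genes tested, dim ones included. By list these were 4 of 7 origin recognition genes, 4 of 6 in licensing control, 8 of 11 in origin firing, 1 of 2 MCM relatives, 2 of 3 in fork protection and 9 of 12 polymerase genes. They were 8 of 10 clamp genes, 7 of 9 in Okazaki processing, 4 of 4 in chromatin assembly and 6 of 13 in the E2F list. With the slide as a block, 39 were called on the 8 arrays, in a fit that called 7.18% of all genes. The lists were drawn up with earlier results of these arrays known.

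In the origin recognition complex, which marks origins throughout the cycle, 3 of 7 genes fell. These were Orc1 (-1.61 ± 0.16), the subunit whose supply is cyclic, Orc2 (-1.21 ± 0.13) and Orc6 (-0.77 ± 0.09). Orc4 changed by -0.06 ± 0.10 and Lrwd1, a cofactor of the complex, by -0.33 ± 0.12, and neither passed. Among the 6 measured genes of licensing control, 4 fell: the Cdt1 inhibitor geminin, Gmnn (-1.48 ± 0.09), Dtl (-1.38 ± 0.11), the receptor by which the Cul4 ligase recognises Cdt1, the anaphase-promoting complex inhibitor Fbxo5 (-1.65 ± 0.21) and Mcmbp, which binds free MCM proteins (-0.76 ± 0.15). The ligase's adaptor Ddb1 rose by 0.33 ± 0.09 (limma adjusted p = 0.0414) and its scaffold Cul4a was 0.35 ± 0.10 higher without passing, its adjusted p lying just above the threshold. Ddb1 was named after its value was seen, as were Mcmbp, Pold4 and Tfdp2.

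In origin firing all 11 measured genes fell (median -1.44). Topbp1 and Mtbp, which act in recruiting Cdc45 and GINS, changed by -1.64 ± 0.09 and -1.64 ± 0.10, and Wdhd1, which links the helicase to polymerase alpha, by -1.61 ± 0.09. Of the MCM relatives outside the licensing complex, Mcm8 fell by 1.14 ± 0.10 and Mcm9, its partner in recombination, changed by 0.06 ± 0.18. All 3 fork protection genes fell: Timeless (-1.86 ± 0.32), Tipin (-1.22 ± 0.08) and Clspn (-1.42 ± 0.16).

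Among 12 polymerase and primase genes 11 fell, including Pole2 (-1.63 ± 0.13), Pola1 (-1.37 ± 0.12) and Prim2 (-1.27 ± 0.08), and the small polymerase delta subunit Pold4 rose by 0.52 ± 0.12 (limma adjusted p = 0.0225). Of 10 clamp and clamp loader genes 9 fell, with the sliding clamp Pcna at -1.30 ± 0.09, Rfc3 at -1.22 ± 0.09 and the unloader Atad5 at -1.54 ± 0.14, while Chtf8 changed by -0.05 ± 0.13. In single-strand binding and Okazaki processing 7 of 9 fell, among them the nucleases Fen1 (-1.80 ± 0.12) and Dna2 (-1.69 ± 0.10), and Rpa1 changed by -0.23 ± 0.35 without passing. All 4 chromatin assembly genes fell, and the histone chaperone Asf1b (-2.44 ± 0.11) exceeded every helicase gene in size, whereas its paralogue Asf1a fell by 0.52 ± 0.11. Of 13 E2F and pocket protein genes 7 fell, including Rbl1 (-1.35 ± 0.08), E2f7 (-0.98 ± 0.09) and E2f3 (-0.73 ± 0.09), 1 rose, the E2F partner Tfdp2 (0.76 ± 0.12), and Rb1, at 0.77 ± 0.33, did not pass.

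**Figure D4:**
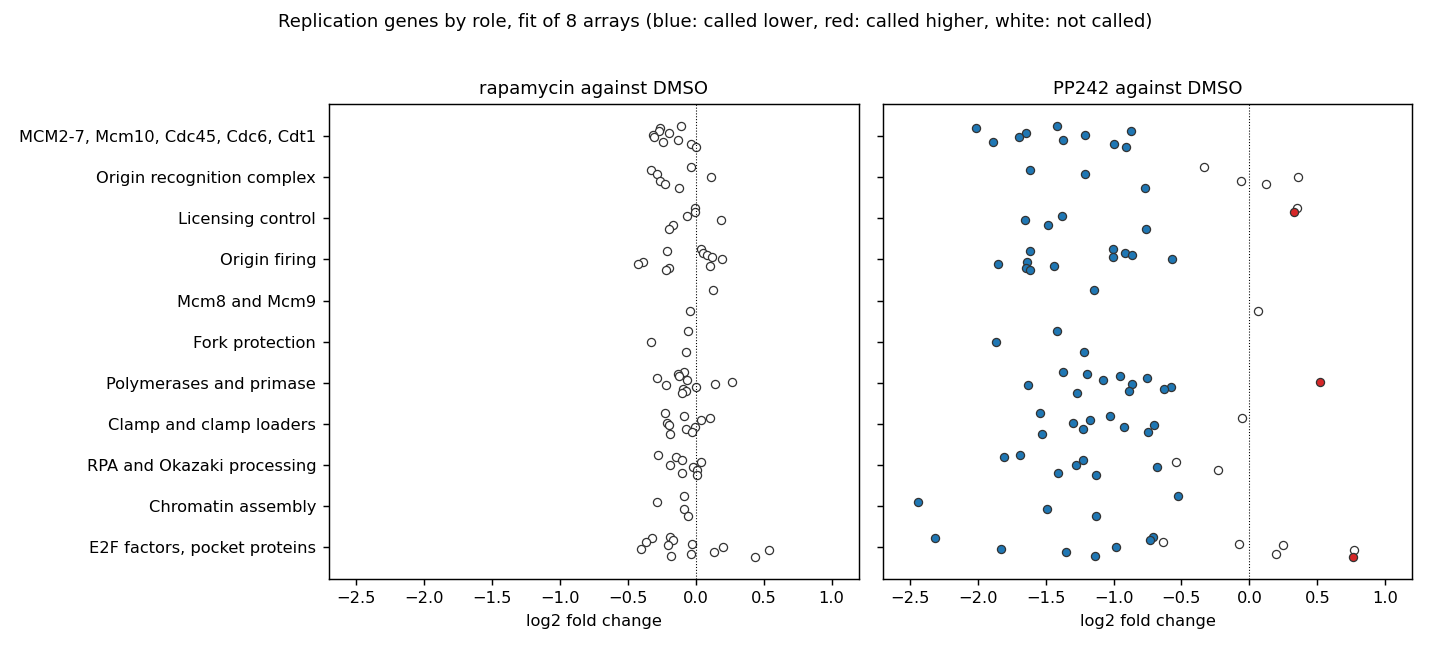
Log2 fold change of the 10 genes and of 77 other replication and E2F genes by role on the 8 arrays, for rapamycin and for PP242 against DMSO, with 1 point per gene (filled where the limma adjusted p is under 0.05). Under rapamycin no point is filled, and under PP242 all 11 origin firing genes are filled on the lower side while the origin recognition complex spreads on both sides of 0.

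The promoter matches can be set beside these changes. The 6 helicase and loading genes with a match had a median PP242 change on the 8 arrays of -1.35 and the 3 without one -1.42. Of the 64 other pathway genes with a promoter in the table, 21 held a match; 20 of these 21 fell (median -1.22), and of the 42 measured without one 29 fell and 3 rose (median -0.83). These medians describe the lists, and the difference between them was not tested.

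A pair of genes in the set have an oppositely oriented gene that starts within 1000 bases. Ap4m1, an adaptor protein subunit, starts 138 bases from an annotated Mcm7 start. It read -0.32, -0.66, -0.45 and 0.10 on the DMSO arrays, 0.00, 0.02, -0.60 and 0.10 on the rapamycin arrays and 0.36, 0.57, 0.55 and 0.47 on the PP242 arrays. All PP242 arrays were above all DMSO arrays, the opposite order to Mcm7. Ap4m1 rose by 0.78 ± 0.17 on the 8 arrays (limma adjusted p = 0.0173) and was 0.82 ± 0.25 higher on the 12 without passing (adjusted p = 0.271). Ufd1, a cofactor in protein degradation that starts 322 bases from Cdc45, changed by 0.25 ± 0.09 on the 8 arrays without passing (limma adjusted p = 0.0967) and by 0.06 ± 0.45 on the 12 (adjusted p = 0.958). These neighbours were looked up after the values of the 10 genes were seen.

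Across the 8 arrays the mean profile of the 10 genes was compared with every one of 12325 other named genes, each centred on its DMSO mean. The 5 closest were Nup93, with a mean absolute difference of 0.046 on the log2 scale, Cdca4 (0.0506), Xrcc3 (0.0516), Cenpn (0.0519) and Cbx5 (0.0561). Nup93, a nuclear pore scaffold protein, read 2.35, 1.85, 2.17 and 2.58 in DMSO, 2.04, 2.05, -0.29 and 2.31 in rapamycin and 0.67, 0.96, 0.91 and 0.88 in PP242. Their PP242 changes lay between -1.29 and -1.44 and their rapamycin changes between -0.13 and -0.24. The likeness is a description over 8 arrays of which 2 were treated with PP242.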

How the data were processed

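Each of the 12 samples gave 1 one-colour array. The intensity used is the processed signal of 41174 probes on a linear scale, background-subtracted and spatially detrended, per the file headers, by Agilent Feature Extraction 10.5.1.1 (version 10.1 in the submitters' processing notes). A deposited series table gives log2 values per probe, with column medians of 8.54 to 8.56 and the probe order of the unsubtracted median signal. How it was made is not stated, so it served as an alternative. The array design names older genome coordinates, so genes were matched by RefSeq accession only, and 24844 probes had a symbol. The other 16330 probes were grouped by the sequence identifier given on the array. Each such identifier that passed the filter counts as a gene in the totals and shares of all genes. The PP242 dose is 2 µM in the characteristics and the design text and 2 mM in the treatment protocol; 2 µM is used.

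From the intensity, log2 values minus each array's 75th percentile were computed. Control spots and outlier spots (1.34% of probe values) were left out, and no spot was saturated. Probes were kept if well above background on 4 or more of the 12 arrays, or 2 of the 8 arrays whose 75th to 25th percentile ratio was over 100, with the brightest probe standing for a gene. Limma 3.58.1 in R 4.3.3 (lmFit, eBayes, two-sided) was fitted to all 3 groups together, with Benjamini-Hochberg adjustment over all genes tested and a threshold of 0.05, and was tested on simulated data. Differences between genes on the same array were tested by exact permutation. The number of arrays limits the precision, and the p-values measure only the spread between these samples.

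The text names all 10 genes, from each list up to 3 called genes by adjusted p and up to 2 not called by level, and the 5 genes of closest profile. The 10 genes and the lists were chosen with earlier results of these data known. Alternatives were quantile normalisation, median centring, unsubtracted signal, normexp, the deposited table, other filters, the mean of probes, slide or replicate number as a block, array weights, only the groups compared, and leaving out each array. The promoter search, the neighbouring genes and the comparison between genes on an array were added after the data were seen. Skp2, Gins1 and Mcmdc2 were not matched to a probe and are not analysed here.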

Additional observations from a re-analysis of the deposited data

Results flagged for a closer look

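In groups of 4 arrays, 10 of 29 tested groups of the 10 genes had a highest or lowest array whose gap to the next, as a share of the group's range, was above Dixon's 95% critical value. Chance alone gives about 1 in 20 such groups where groups are independent. These genes were read on the same arrays, so 1 odd array can flag several of them. In 6 genes the low array was rapamycin 3: Cdc45 (0.963), Cdt1 (0.933), Mcm10 (0.931), Mcm7 (0.892), Mcm6 (0.865) and Cdc6 (0.85). In 3 genes the high array was PP242 4: Mcm4 (0.895), Mcm2 (0.894) and Mcm5 (0.879). The lowest PP242 array of Cdt1, PP242 1, had a share of 0.874. All 3 arrays are among the 4 with raised dim probes, and whether this accounts for their values was not tested.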

How the results depend on the processing

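No result changed direction past the threshold under any alternative. Of 2060 checks of single genes, 1950 kept their side of the threshold, 64 newly passed it and 46 lost it. For PP242 against DMSO on 12 arrays, where 0 of the 10 genes and 0 of 77 pathway genes were called, a filter on probes well above background on all arrays gave 2 and 3 (2.02% of all genes), array weights 10 and 70 (35.7%), a fit of only the groups compared 9 and 44 (6.71%), and normexp 4 pathway genes (0.946%). Array weights gave 10 and 67 for PP242 against rapamycin on 12 arrays (28.2% of all genes). For rapamycin against DMSO they gave 2 and 4 on 12 arrays (9.81%) and 2 and 7 on 8 (11.4%); the 2 were Cdt1 and Mcm2. The weight of rapamycin 3 was 0.0201. The median change of the 10 genes for PP242 against DMSO was -2.07 with median centring on 12 arrays, which shifts the median of all genes to -0.46, and on 8 arrays -1.26 with quantile normalisation, -1.23 with normexp and -1.15 in the deposited table. For PP242 against rapamycin on 8 arrays it was -1.12 with normexp and -0.91 in the deposited table. With the slide as a block on 8 arrays, PP242 against DMSO had 39 pathway genes called (7.18% of all genes). PP242 against rapamycin had 3 of the 10 genes and 28 pathway genes (2.63%).

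Deviations of same-numbered arrays from their group means had correlations from -0.9 to 0.79. For DMSO with rapamycin they were 0.63, -0.69, -0.54 and 0.62 for replicates 1 to 4. The arrays with raised dim probes enter these group means, so the correlations cannot decide whether the replicate numbers pair the samples. With the replicate number as a block, 35 pathway genes instead of 56 were called for PP242 against rapamycin on 8 arrays (4.85% of all genes). Mcm4, Mcm7 and Cdt1 no longer passed there (limma adjusted p = 0.0546, 0.0573 and 0.0924).

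Leaving out each array in turn gave, for the 10 genes called on 12 arrays, 0 to 0 for rapamycin against DMSO, 0 to 10 for PP242 against DMSO and 0 to 8 for PP242 against rapamycin, the highest without rapamycin 3. On 8 arrays the ranges were 0 to 0, 8 to 10 and 4 to 10, the lowest without a PP242 array. The pathway counts were 0 to 0, 0 to 55 and 0 to 43 on 12 arrays and 0 to 0, 46 to 66 and 30 to 60 on 8. The medians ran from -0.82 to -0.11, -1.29 to -1.09 and -1.14 to -0.37 on 12 arrays and from -0.29 to -0.080 (the last without DMSO 4), -1.45 to -1.33 and -1.30 to -1.25 on 8. Only 2 PP242 arrays remain among the 8, and the raised signal of dim probes limits the other 4.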
